A study of Drosophila melanogaster with 36 samples.

Results

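The subjective night of w1118 larvae was compared with the subjective days on either side of it, in RNA of the whole fat body. The comparison took the 6 w1118 libraries of CT12, CT16 and CT20 against the 12 of CT0, CT4, CT8, CT24, CT28 and CT32, which is 18 of the 36 libraries of the series. CT is circadian time, the hour counted from the start of the subjective day in constant darkness, and samples lay 4 h apart with 2 libraries per time. Time in hours entered the fit as a straight line, because larvae grow over the series and both the night and the day times average CT16. A steady rise or fall therefore cancelled.

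Each library was made from the dissected fat bodies of 5 larvae of the third instar. The pools are described as of both sexes together, but the sex of each pool is not given. The RNA lncRNA:roX2, which follows the share of males, was at 0 in w1118 libraries CT0 A, CT4 A and CT16 A. The larvae came from light-dark cycles and were sampled in constant darkness. The w1118 strain carries a mutation of the white eye-colour gene and here stands for flies with a working clock. The per0 strain, sampled at the same times in the same way, lacks a working period gene, and its 18 libraries are used here only to set the w1118 values beside them. The series' title concerns rhythms of lipid metabolism in this organ that do not depend on the clock. The labels do not name a question for night against day.

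The larval fat body stores triglyceride and glycogen, secretes most proteins of the hemolymph, and reports the supply of amino acids and sugar to the rest of the animal through secreted signals. It builds its stores while the larva feeds and gives them up once feeding has ended. Clock genes act in the fat body of the adult fly, where the proteins encoded by period and timeless hold back their own transcription, which Clock and cycle drive.

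The w1118 libraries held 16948806 to 25110769 counts and 10771 to 13698 detected genes. All 7 listed fat body markers were detected in every w1118 library, 1 of them (Fbp1) was called lower at night, and their summed level ran from 131200 to 199900 CPM at night and from 69970 to 257100 CPM by day (CPM, the usual depth-scaled count, divides a gene's counts by its library's total, adjusted by the trimmed mean of M values). Duplicates differed most at CT24 and CT28, with SDs of 0.959 and 0.994 for the log2 difference between both libraries over genes. The libraries of the second day stood apart at some genes that change late in larval life. Fbp1, the receptor that takes up serum proteins late in larval life, ran from 1.84 to 89.6 CPM on the first day, from 1.27 to 26.7 at night and from 138 to 44974 on the second day. A single night, in the middle of the series, was sampled, so that a night response cannot be told apart from any other curved change over larval age. In per0 library B of CT28, 3 genes that otherwise separate the genotypes lay above all remaining per0 libraries. CG17230 measured 31.4 CPM there, 0.13 to 2.60 CPM across all remaining per0 libraries and 50.5 to 75.2 CPM in w1118.

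Of 11650 genes tested, 204 changed between night and day in w1118, which is 1.75%. A set of 113 genes was higher at night (0.97%), with a median log2 change of 1.02, and 91 were lower (0.781%), with a median of -0.81. The median over all genes tested was 0.01. The change was over 2-fold in 60 of the genes that rose and in 36 of those that fell, and 170 of the 204 averaged at least 10 CPM. The night libraries lay above all 12 day libraries for 22 of the 113 genes and below all of them for 11 of the 91. Over all genes tested such a gap was found upward for 28 (0.24%) and downward for 12 (0.103%). In total 1909 genes had an unadjusted p under 0.05, and the count of called genes moved with single libraries. It was 52 without library B of CT16, 112 without CT20 B, 121 without CT4 B, 129 without CT24 A, 130 without CT12 B, 134 without CT4 A and 307 without CT24 B. The split between directions moved too. It was 126 higher and 14 lower without CT20 A, 87 and 25 without CT20 B, 35 and 17 without CT16 B, 113 and 43 without CT0 A, 235 and 51 without CT12 A, 234 and 55 without CT0 B, and 60 and 70 without CT12 B. With DESeq2 size factors 211 genes were higher and 85 lower. With a curved time term beside the straight one, chosen after seeing the data, 37 genes were called.

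Among the largest rises were those of CNMa, aay and Jon74E. CNMa, which encodes the CNMamide peptide, measured 33.9, 47.3 and 102 CPM as the lowest, median and highest of the 6 night libraries, against 0.896, 3.29 and 22.5 CPM over the 12 day libraries. Its night values all lay above its day values, and the highest day values were those of CT8 and CT32, at 18.3 and 21.0 CPM and at 9.21 and 22.5 CPM. The night level was 7.33-fold higher (log2 2.87 ± 0.66 SE, adjusted p = 0.0375). This call was lost without any of CT0 A, CT4 A, CT4 B, CT12 B, CT16 A, CT16 B, CT20 B, CT24 A, CT28 A or CT28 B, with adjusted p from 0.0537 to 0.105. Under 21 of 42 alternatives it was lost, among them a midgut score as a covariate, no linear time and the curved time term. The tissue that CNMa RNA came from was not tested.

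The gene aay encodes phosphoserine phosphatase, which makes serine. It measured 645, 1051 and 1276 CPM at night and 24.6, 110 and 550 CPM by day. No day library reached the lowest night library. The rise was 4.88-fold (log2 2.29 ± 0.51 SE, adjusted p = 0.0314), and the call was lost without CT4 A, CT12 B, CT16 B or CT20 B, with adjusted p from 0.051 to 0.0818.

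Jon74E, a serine protease of the Jonah family, measured 32.5, 74.0 and 87.5 CPM at night and 3.67, 14.3 and 27.8 CPM by day, again without overlap. It was 4.42-fold higher (log2 2.14 ± 0.30 SE, adjusted p = 0.00216) and kept its call under every alternative tried. Other Jonah proteases mark the midgut, whose 17 listed markers sum to 0.716 to 14940 CPM at night and to 1.27 to 6771 CPM by day. Of the 14 tested none was called, and 10 of 14 estimates were negative. With the midgut score as a covariate the Jon74E call held, and the tissue its RNA came from was not tested.

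The gene kel encodes Kelch, an adaptor of the Cullin-3 ubiquitin ligase first known from the ring canals of the egg chamber. It had, with Kr, the smallest adjusted p of all genes. It measured 20.7, 44.7 and 50.6 CPM at night and 8.77, 12.3 and 20.1 CPM by day. Every night library exceeded every day library, the closest pair being CT16 A and a CT32 library. It was 2.99-fold higher (log2 1.58 ± 0.17 SE, adjusted p = 0.000377). The gene ringer, whose product binds microtubules, moved likewise, from 12.3, 15.9 and 29.5 CPM by day to 35.3, 48.8 and 70.2 CPM at night (log2 1.39 ± 0.18 SE, adjusted p = 0.00132).

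**Figure D1:**
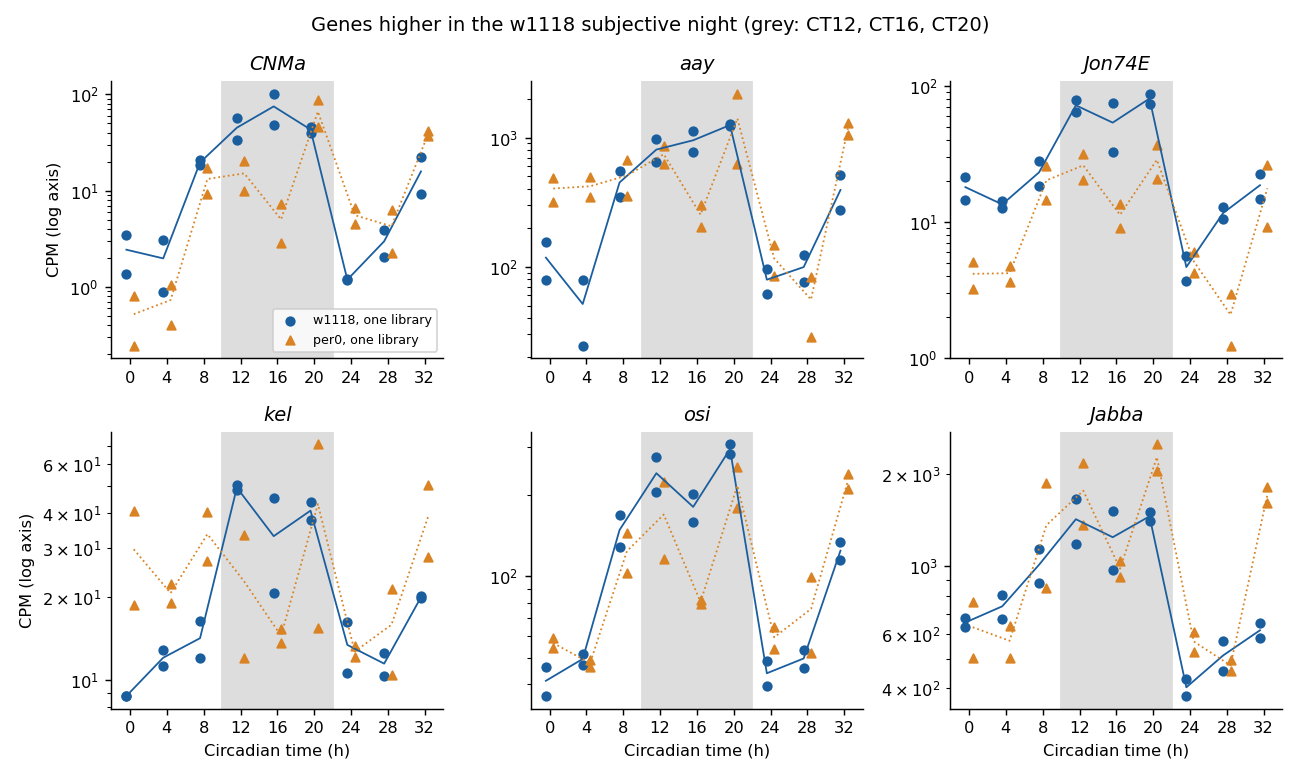
CPM on a log axis against circadian time in hours for 6 genes called higher at night, with a point for each library, lines through the means of the 2 libraries per time, w1118 as circles and per0 as triangles, and the night shaded. In w1118 all 6 night libraries lie above all 12 day libraries for CNMa, aay, Jon74E and kel, and CNMa falls from 40.0 and 46.4 CPM at CT20 to 1.18 and 1.21 CPM at CT24.

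Of the 12 largest rises, 5 showed no overlap between night and day libraries: CNMa, CG42369, aay, Jon74E and Nepl4. These 12 were chosen by the same values. Over all genes tested 0.24% lay above all day libraries. CG9451 had the largest change of all 12, with 32.1, 74.7 and 257 CPM at night and 1.54, 4.46 and 41.2 CPM by day (log2 3.79 ± 0.56 SE, adjusted p = 0.00292). Lst encodes Limostatin, a peptide that restrains insulin release, and rose from 40.2, 133 and 551 CPM by day to 271, 671 and 871 CPM at night (log2 1.87 ± 0.36 SE, adjusted p = 0.016). Its highest day value came from the second day, and its groups overlapped. Nepl4, a neprilysin-like peptidase, rose by 1.72 ± 0.27 log2 (adjusted p = 0.00526), Tg, the transglutaminase that crosslinks the hemolymph clot, by 1.65 ± 0.32 (adjusted p = 0.0178), and Iris, a domesticated retroviral envelope gene, by 2.74 ± 0.56 (adjusted p = 0.0225). The remaining 4 were CG14275, CG42369, CG43153 and CG5171, with log2 changes of 2.80, 2.73, 1.73 and 1.66. Of the 12 genes, 6 kept their call without each library in turn, and CG14275, Iris, CG5171 and Tg lost theirs without CT16 B alone, with adjusted p of 0.0537, 0.0544, 0.0801 and 0.0664.

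CtsL1, CtsF, path, raw and puc were also called higher, and are named here after their values were seen. CtsL1, a cathepsin L, measured 161, 320 and 351 CPM at night and 43.7, 131 and 160 CPM by day. The groups did not overlap, though the lowest night and the highest day library differed by little. It rose by 1.34 ± 0.19 log2 (adjusted p = 0.002), and CtsF, a cathepsin F, rose by 0.99 ± 0.17 (adjusted p = 0.0074). The amino acid transporter path measured 571, 694 and 757 CPM at night and 215, 332 and 403 CPM by day, without overlap, and rose by 0.97 ± 0.12 log2 (adjusted p = 0.000897). The gene raw, a brake on Jun kinase signalling, rose from 6.35, 13.6 and 20.9 CPM by day to 21.7, 36 and 40.8 CPM at night (adjusted p = 0.002), and puc, the phosphatase that Jun kinase induces, by 0.69 ± 0.13 (adjusted p = 0.016, and 0.0518 without CT16 B). CtsL1, path and raw kept their calls under every alternative tried.

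Kr, CG5958, Obp99a and PGRP-SD fell at night in every fit that left out a library. Kr encodes Krüppel, a zinc finger repressor best known from the early embryo. It measured 29.4, 44.6 and 55.5 CPM at night and 63.3, 115 and 146 CPM by day, without overlap. It fell by 1.34 ± 0.15 log2 (adjusted p = 0.000377). CG5958 measured 433, 524 and 714 CPM at night and 878, 1092 and 1408 CPM by day, also without overlap, and fell by 1.10 ± 0.13 log2 (adjusted p = 0.000528). Its night values were lowest at CT20, with 433 and 456 CPM.

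Obp99a, a secreted odorant-binding protein, measured 10.7, 18.9 and 23.8 CPM at night and 21.5, 81.2 and 246 CPM by day. A single day library, at CT0, lay inside the night range. The fall was 2.55 ± 0.39 log2 (adjusted p = 0.00469). Kr, CG5958 and Obp99a kept their calls under every alternative tried. PGRP-SD, a secreted protein that binds peptidoglycan, measured 8.37, 10.8 and 14.9 CPM at night and 17.4, 32.4 and 118 CPM by day, without overlap. It fell by 1.92 ± 0.30 log2 (adjusted p = 0.00526), a call that held without each library in turn.

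**Figure D2:**
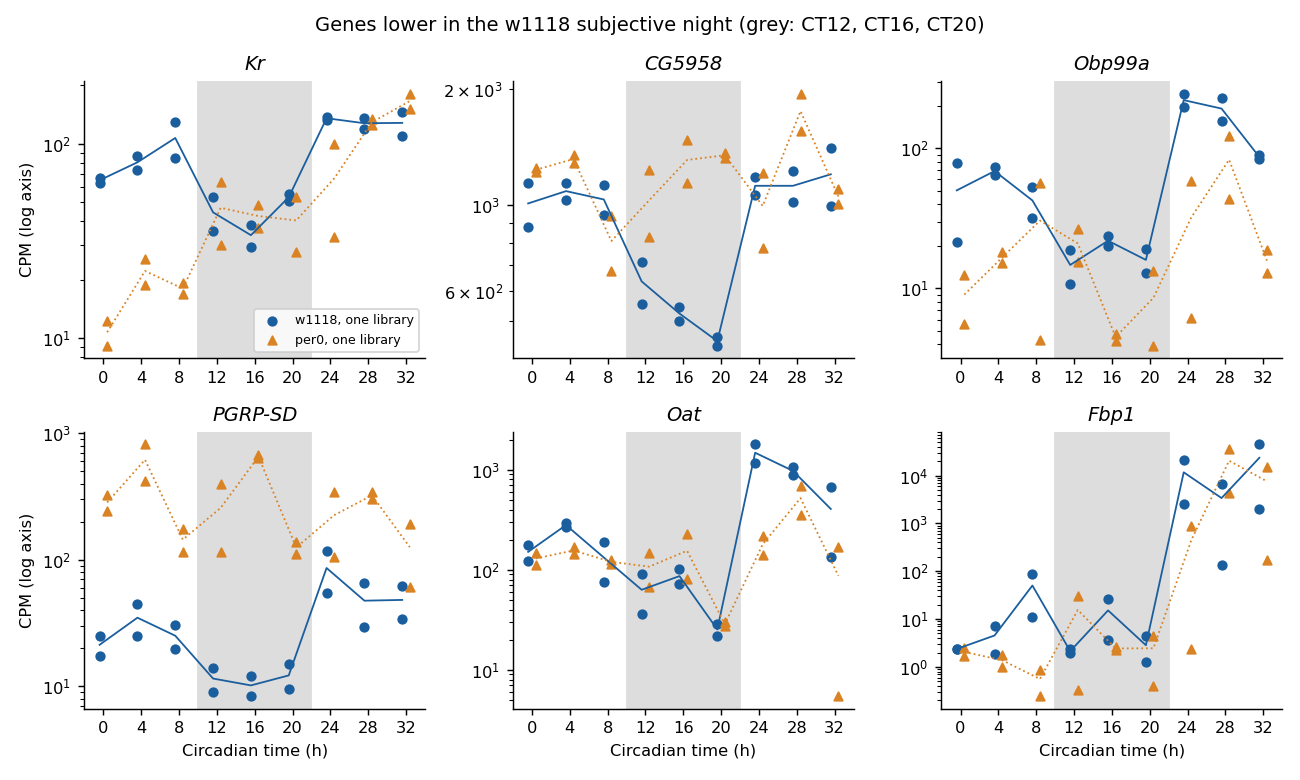
CPM on a log axis against circadian time in hours for 6 genes called lower at night, with a point for each library, lines through the means of the 2 libraries per time, w1118 as circles and per0 as triangles, and the night shaded. In w1118 Kr, CG5958 and PGRP-SD dip at all 3 night times, whereas the first-day and night points of Fbp1 overlap, at 1.84 to 89.6 CPM and 1.27 to 26.7 CPM, and it reaches 44974 CPM at CT32.

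Several of the largest falls owed their size to the second day. Oat, ornithine aminotransferase, which links ornithine to proline and glutamate, measured 21.9, 54.1 and 101 CPM at night. It measured 75.1 to 295 CPM on the first day and 133 to 1799 CPM on the second. The fall was 2.92 ± 0.61 log2 (adjusted p = 0.0238), and the call was lost without CT16 B, CT20 A or CT20 B, with adjusted p from 0.0505 to 0.0656. NimC2, a Nimrod family gene of the kind active in phagocytes, stayed at or under 0.708 CPM on the first day and at night and reached 9.53 to 126 CPM on the second day. Its fall of 4.47 ± 0.90 log2 (adjusted p = 0.0224) was lost without the same 3 libraries, with adjusted p from 0.0544 to 0.0571, and 18.7% of its exon bases overlap rk on the opposite strand, which the counts cannot keep apart. Fbp1 was also far higher on the second day than before it, and its night and first-day ranges overlapped. Its nominal fall of 5.66 ± 1.32 log2 (adjusted p = 0.0377) was lost without CT0 A, CT4 A, CT12 A, CT12 B, CT16 B, CT20 A, CT20 B, CT24 A or CT28 A, with adjusted p from 0.0502 to 0.101. GstD1, a glutathione S-transferase, fell by 1.55 ± 0.37 log2 (adjusted p = 0.0419) from 317 to 2297 CPM by day to 166 to 548 CPM at night, with the groups overlapping. This call was lost without CT0 A, CT4 B, CT8 B, CT12 A, CT16 B, CT20 A, CT20 B, CT24 A, CT28 A, CT28 B or CT32 A, with adjusted p from 0.0511 to 0.114. The remaining 5 of the 12 largest falls, from -1.25 to -2.54 log2, were those of CG12224, CG7384, Daao2 (a D-amino acid oxidase), CG18135 and CG8100. Daao2 and CG18135 lost their calls without CT16 B (adjusted p = 0.0632 and 0.0501). CG7384 lost its call without CT4 A, CT12 A, CT12 B, CT16 B, CT20 A, CT20 B, CT24 A or CT28 A, and CG12224 without CT0 A, CT4 A, CT4 B, CT12 A, CT16 A, CT16 B, CT20 A, CT20 B, CT24 A, CT28 A or CT32 A, with adjusted p of up to 0.0957 and 0.12. Of the 12, 4 kept their call without each library in turn: Obp99a, PGRP-SD, Kr and CG8100.

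Set against each flank on its own, the night differed from the first day in 65 genes (0.558%), with 23 higher (0.197%) and 42 lower (0.361%), and from the second day in 705 genes (6.05%), with 338 higher (2.90%) and 367 lower (3.15%). Both contrasts share the night libraries. Of the 204 genes, 40 were also called against the first day alone and 159 against the second day alone, and the sign was shared between both flanks for 201. The exceptions were hid, an inducer of apoptosis, Paics, an enzyme of purine synthesis, and CG13066. These 3 are named after their values were seen. hid differed by -0.02 log2 from the first day and by 2.54 log2 (adjusted p = 0.000463) from the second, and its call over both days was lost without CT16 B (adjusted p = 0.0955). Paics differed by 0.05 and by -1.79 log2 (adjusted p = 0.000736 for the second). CG13066 was at 0 on the whole second day and at most at 0.0332 CPM at night, so its fitted changes carry no size.

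Some genes stood apart from both days by similar amounts. kel was higher by 1.75 ± 0.22 log2 than on the first day (adjusted p = 0.00529) and by 1.39 ± 0.22 than on the second (adjusted p = 0.00161). CG5958 changed by -1.03 ± 0.14 log2 against the first day (adjusted p = 0.00636) and by -1.18 ± 0.14 against the second (adjusted p = 0.000207). Kr changed by -1.01 ± 0.17 log2 (adjusted p = 0.025) against the first day and by -1.66 ± 0.18 (adjusted p = 0.000193) against the second. For CNMa the changes were 2.73 ± 0.85 (adjusted p = 0.11) and 3.00 ± 0.86 log2 (adjusted p = 0.0478). CG14275 was level with the first day, at 0.04 ± 0.65 log2, and 4.90 ± 0.77 log2 higher than the second (adjusted p = 0.00161). Among the 12 largest rises 2 were called against the first day and 11 against the second, and among the 12 largest falls 2 and 12. The first-day count was the less steady. It ran from 4 without CT4 B to 336 without CT8 A, and was 5 without CT4 A, 13 without CT16 B, 14 without CT0 B or CT12 B, 17 without CT0 A, 18 without CT20 B, 22 without CT20 A, 34 without CT24 A, 123 without CT8 B, 155 without CT24 B and 216 without CT28 B. The second-day count was 383 without CT16 B and 461 without CT24 A, and its split leaned upward without CT0 B (605 higher, 296 lower), CT12 A (592 and 246), CT0 A (506 and 302), CT20 A (494 and 201) or CT20 B (501 and 254).

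**Figure D3:**
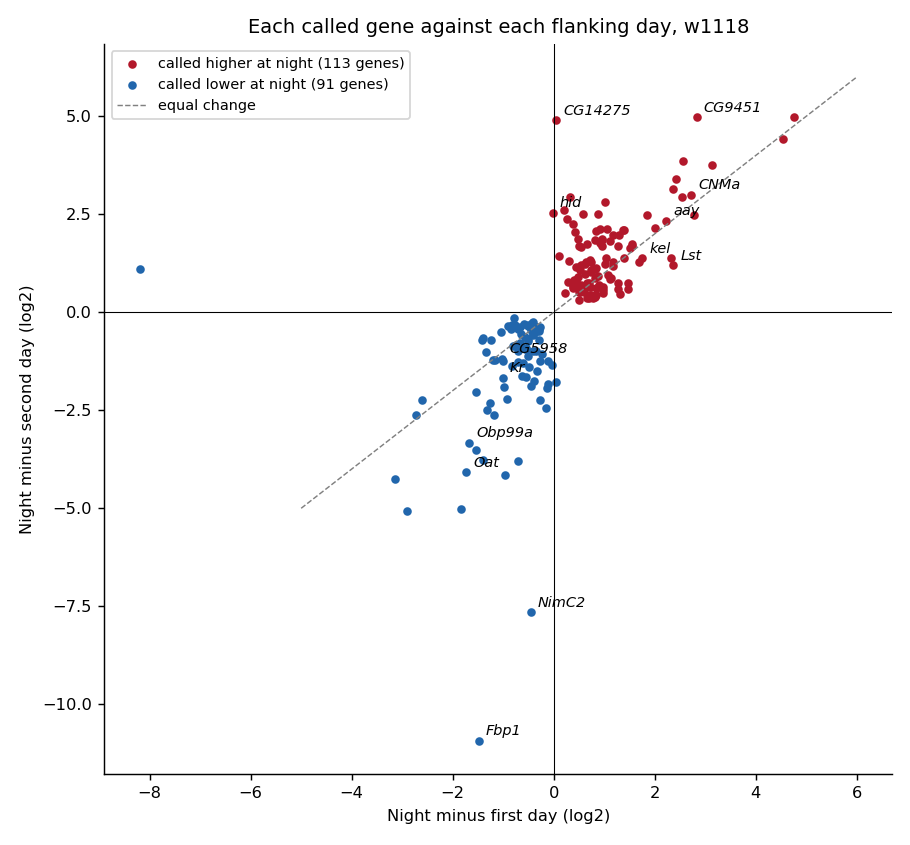
Log2 change of each of the 204 called genes against the first day (horizontal axis) and against the second day (vertical axis), red for the 113 called higher and blue for the 91 called lower, with a dashed line of equal change. Genes such as kel and CNMa lie near that line, whereas Fbp1, NimC2, CG14275 and hid lie far from it, and the point at the far left is CG13066, whose night and second-day libraries are at or near 0.

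Over the 113 genes that rose, the mean z-score of the log level was -0.487 at CT0, -0.506 at CT4, 0.0636 at CT8, 1.02 at CT12, 0.923 at CT16, 1.09 at CT20, -0.997 at CT24, -0.83 at CT28 and -0.279 at CT32. The mean lay near 0 at CT8, high and level at the 3 night times, lowest at CT24 and higher again at CT32. The 91 genes that fell went from 0.125 at CT8 to -0.817 at CT12, -0.997 at CT16 and -0.925 at CT20, and back to 0.815 at CT24. These means describe genes chosen for a night difference and carry no test.

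No gene passed at the step from CT8 to CT12 by edgeR, where the unadjusted p was under 0.05 for 482 genes. The call was 0 genes by limma voom and 114 by DESeq2. The step from CT20 to CT24 changed 259 genes (2.22%), of which 94 rose (0.807%) and 165 fell (1.42%), and 89 of the 204 genes were among them. CG42369 changed by -5.65 ± 0.73 log2 (adjusted p = 0.00634). CNMa fell by 5.05 ± 0.74 log2 (adjusted p = 0.0107), Iris by 5.54 ± 0.51 (adjusted p = 0.00179), osi by 2.63 ± 0.21 (adjusted p = 0.000649) and aay by 3.87 ± 0.59 (adjusted p = 0.0114). Oat rose by 5.96 ± 0.84 log2 at this step (adjusted p = 0.00871) and GstD1 by 3.60 ± 0.57 (adjusted p = 0.012). The smallest p at the step into the night belonged to kel, ringer and CG5854, with log2 changes of 1.74, 1.18 and -1.11 and an adjusted p of 0.864 each. The smallest p at the step out belonged to osi, Iris and CG5707, the last of which fell by 2.10 ± 0.21 log2 (adjusted p = 0.003). The count and its split changed with single libraries. Without CT20 A 8 rose and 82 fell, and without CT20 B 8 rose and 98 fell. Without CT24 B the balance turned, with 297 rising and 96 falling. Without CT24 A 64 rose and 255 fell, without CT0 B 144 and 259, and without CT12 A 205 and 259. Whether the step out was larger than the step in was not tested. Among CT12, CT16 and CT20 no gene differed by edgeR (0%), while the unadjusted p was under 0.05 for 2220. The call there was 0 by voom and 1414 by DESeq2, and 101 genes differed by edgeR when genes under 10 CPM were left out first. Without CT24 A or CT24 B, times at which duplicates were unlike, 172 and 174 genes differed within the night, without CT0 B 29, without CT12 A 8 and without either CT8 library 1. The smallest p there were those of bmm, the Brummer triglyceride lipase, Cyp4e3 and CG11425, with adjusted p of 0.0648, 0.104 and 0.178.

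Genes of the amino acid response and of serine synthesis had the highest median among the metabolic lists. Of 19 tested, 4 rose, 1 fell and 14 did not pass, with a median of 0.63 log2, and 15 had an unadjusted p under 0.05. Over all 11650 genes tested 0.97% rose and 0.781% fell, and 1909 had an unadjusted p under 0.05. The 4 that rose were aay, Cbs (cystathionine beta-synthase, which uses serine), CG10365 and trbl, the Tribbles pseudokinase. Cbs rose by 0.78 ± 0.17 log2 (adjusted p = 0.0275), and its call was lost without CT12 B or CT16 B, with adjusted p from 0.0549 to 0.0851. CG10365 rose by 0.73 ± 0.13 log2 (adjusted p = 0.0119). trbl reached 49.5 and 51.7 CPM at CT16, against 25.0 to 30.0 CPM in the other night libraries and 15.5 to 24.5 CPM by day. Its call (log2 0.73 ± 0.17, adjusted p = 0.0413) was lost without CT4 A, CT4 B, CT16 A, CT16 B, CT24 A, CT28 A, CT28 B or CT32 A, with adjusted p from 0.0523 to 0.125. The trbl call was also lost by limma voom and with a roX or a midgut score as a covariate. Both CT16 libraries were low in lncRNA:roX2, at 0 and 0.0448 CPM, and the part of sex in this peak was not tested. The gene that fell was Cth, cystathionine gamma-lyase, which follows Cbs in the pathway and measured 127, 186 and 224 CPM at night and 197, 399 and 801 CPM by day (log2 -1.19 ± 0.28, adjusted p = 0.0421). Its call held only without CT8 A, CT8 B, CT24 B, CT32 A or CT32 B, and rose to an adjusted p of up to 0.123 without any of the other 13.

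Some well-known members of this response had large estimates that did not pass. Thor, the translation brake 4E-BP, measured 331, 525 and 1053 CPM at night and 19.7, 40.3 and 868 CPM by day, with a log2 difference of 2.40 ± 0.61 (adjusted p = 0.0546). Its day range was stretched by CT32, where it measured 497 and 868 CPM, while all other day libraries lay at or under 147 CPM. The glutamine synthetases Gs1 and Gs2, named after their values were seen, had differences of 1.53 ± 0.44 (adjusted p = 0.0838) and 1.62 ± 0.42 log2 (adjusted p = 0.063). Among the 6 genes of the methionine cycle none passed and the median was -0.34.

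In the list of insulin, TOR and FOXO response genes 1 of 23 rose and 1 fell, with a median of 0.16. Over all genes tested 0.97% rose and 0.781% fell. REPTOR, a transcription factor held inactive by the TOR kinase, rose by 0.54 ± 0.12 log2 (adjusted p = 0.032, lost without CT4 B, CT16 A or CT16 B, with adjusted p from 0.0555 to 0.0957). Mondo, the sugar-sensing factor, fell by 0.74 ± 0.15 log2 (adjusted p = 0.023), and lost its call without CT16 B, CT20 A or CT20 B (adjusted p from 0.0535 to 0.061). Outside the list, and seen only afterwards, Pi3K21B, the adaptor of phosphoinositide 3-kinase, measured 39.4, 42.7 and 46.7 CPM at night and 50.6, 73.4 and 99.1 CPM by day. The groups did not overlap, and the fall was 0.85 ± 0.15 log2 (adjusted p = 0.00849). Of 12 secreted signals CNMa alone rose and none fell.

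Among the lists of lipid metabolism, 2 held a called gene, with 1 each, where 1.75% of all genes tested were called. Jabba, which coats lipid droplets and holds histones there, measured 977, 1458 and 1666 CPM at night and 377, 642 and 1140 CPM by day. A CT8 library, at 1140 CPM, lay above CT16 A of the night, and the second day lay wholly below the night, at 377 to 652 CPM. The rise was 2.02-fold (log2 1.01 ± 0.17 SE, adjusted p = 0.00706) and was lost under 1 of 42 alternatives, the curved time term (adjusted p = 0.127). It was the only called gene of 17 in triglyceride synthesis and lipid droplets, whose median was -0.01. In the list of lipoproteins and lipid transport 1 of 12 rose, osi, with 159, 240 and 307 CPM at night and 36.1, 50.2 and 168 CPM by day (log2 1.58 ± 0.32, adjusted p = 0.0224, and 0.0517 without CT16 B). The place of osi in this list was a choice made here, and whether it carries lipid was not tested. None of 16 genes of fatty acid synthesis, 10 lipases and AKH receptor genes or 21 genes of fatty acid oxidation passed, with medians of -0.0004, -0.07 and 0.06. For fatty acid synthesis this median joins opposite flanks: against the first day it was -0.56, with 2 genes lower and none higher, and against the second day 0.68, with 3 higher and none lower. Over all genes tested 0.361% were lower against the first day and 2.90% higher against the second. From CT20 to CT24 5 of the 16 fell, beside 1.42% of all genes tested. Desat1, the desaturase that makes monounsaturated fatty acids, had the largest estimate among the synthesis genes, at 4209, 7901 and 9778 CPM by night and 1225, 3555 and 6317 CPM by day (log2 1.04 ± 0.30, adjusted p = 0.0838). Its difference from the second day alone passed, at 1.43 ± 0.33 log2 (adjusted p = 0.0173). In glycolysis, glycogen and trehalose metabolism 1 of 23 rose, Pgm1, phosphoglucomutase, by 0.78 ± 0.19 log2 (adjusted p = 0.0472). Its call held only without CT0 B, CT8 A, CT8 B, CT12 A, CT20 A, CT24 B or CT32 B. The median of this list was -0.33 against the first day, with none called, and 0.45 against the second, with 8 higher.

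**Figure D4:**
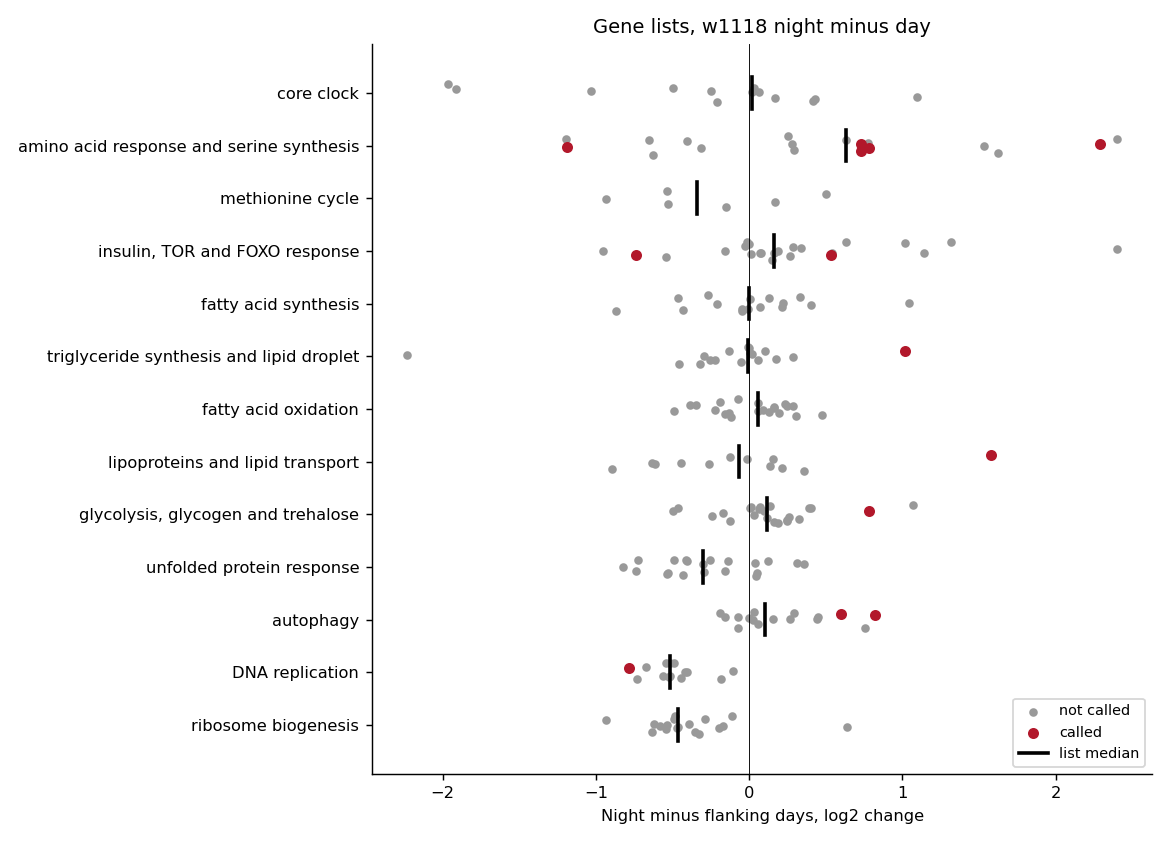
Log2 change between night and day in w1118 for every tested gene of 13 lists, red where called and grey where not, with a black bar at each list's median. The amino acid response list has 5 called genes and a median of 0.63, and all 14 DNA replication genes lie below 0.

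Lists tied to growth leaned downward, with 1 gene called, where 0.781% of all genes tested were called lower. All 14 genes of DNA replication had negative estimates, with a median of -0.52, and 1 of them fell: CycE, the cyclin of endocycle entry, by 0.78 ± 0.19 log2 (adjusted p = 0.0458, held only without CT8 A or CT24 B). The median of this list was -0.79 against the first day and -0.20 against the second. In ribosome biogenesis 17 of 18 estimates were negative, with a median of -0.47 and none called, and 80 of 84 cytosolic ribosomal proteins were negative with a median of -0.15 and none called. For both lists the difference lay against the first day, with medians of -0.82 and -0.37, and was small against the second, at -0.09 and 0.07. The 31 proteasome genes had 30 negative estimates and a median of -0.20, with none called. The unfolded protein response had none of 20 called and a median of -0.30. Levels within each list share libraries, so these counts of signs are descriptions.

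In autophagy 2 of 16 genes rose, Atg2, a lipid transfer protein of the growing autophagosome, by 0.60 ± 0.13 log2 (adjusted p = 0.0275, and 0.0801 without CT16 B), and ref(2)P, the p62 cargo receptor, by 0.82 ± 0.20 (adjusted p = 0.0419, held only without CT0 B, CT8 A, CT8 B, CT12 A, CT24 B, CT32 A or CT32 B). Over all genes tested 0.97% rose and 0.781% fell. The median of the autophagy list was 0.28 against the first day and -0.003 against the second. The 17 tested transcripts of the mitochondrial genome all had positive estimates, with a median of 0.39, and 1 passed, mt:Cyt-b of complex III, at 0.52 ± 0.13 log2 (adjusted p = 0.0465, lost without CT4 A, CT4 B, CT8 B, CT12 B, CT16 A, CT16 B, CT28 A, CT28 B, CT32 A or CT32 B). The 84 nuclear genes of the respiratory chain had a median of 0.09 and none called. Against the first day their median was -0.42 with none called, and against the second 0.56 with 10 higher. Of all genes tested 2.90% were higher against the second day. In the ecdysone and juvenile hormone list 1 of 16 changed, br, an early ecdysone response gene, which fell by 1.13 ± 0.26 log2 (adjusted p = 0.034, lost without CT0 A, CT4 A, CT12 B, CT16 B, CT20 A or CT20 B, with adjusted p from 0.0533 to 0.0985). Its difference from the second day was -1.88 log2 (adjusted p = 0.00131), and the estimate against the first was -0.46. Of 6 larval serum protein genes 1 fell, Fbp1. None of 12 antimicrobial peptide genes passed, with a median of -0.57, and none of 10 heat shock genes or 18 tRNA synthetase genes, with medians of -0.07 and -0.14. In oxidative stress and detoxification 1 of 18 fell, GstD1.

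None of the 13 core clock genes passed, and their median was 0.02. The transcripts of per, tim, Clk, cyc, cry and jet averaged under 10 CPM. Clock's transcript Clk ran from 0.0526 to 7.43 CPM at night and from 0 to 8.71 by day, and tim from 0.211 to 0.804 and from 0.0896 to 4.78. The period transcript per measured 0, 0.0809 and 0.253 CPM at night and 0.107, 0.283 and 1.20 CPM by day, against a floor of 3 counts of 0.0995 to 0.211 CPM, and its log2 difference was -1.91 ± 0.68 (adjusted p = 0.159). The better measured vri, Pdp1 and cwo, which feed back on Clk or its targets, differed by 0.17 ± 0.32, 0.41 ± 0.22 and 0.06 ± 0.12 log2, with adjusted p of 0.781, 0.369 and 0.792. Against the second day alone tim was lower by night, with a log2 difference of -2.19 ± 0.48 (adjusted p = 0.0121), and Pdp1 was higher, with 1.18 ± 0.24 (adjusted p = 0.00805). Neither passed against the first day, at 0.10 ± 0.47 and -0.40 ± 0.24 log2. Outside the list, and seen only afterwards, Cipc, named after the mammalian CLOCK-interacting pacemaker, measured 8.53, 10.8 and 14.9 CPM at night and 3.95, 6.80 and 7.85 CPM by day, without overlap. It rose by 0.70 ± 0.16 log2 (adjusted p = 0.0355), and lost its call without CT4 B, CT12 B, CT16 A, CT16 B or CT24 A, with adjusted p from 0.055 to 0.118.

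RNA of other tissues varied between the pools. The 20 testis and germ line markers summed to 2.42 to 912 CPM at night and to 2.75 to 1320 CPM by day, 19 of 20 estimates were positive with a median of 0.75, and none was called. The 10 salivary gland markers had a median of -5.62 with none called, whereas their summed level leaned the other way, with 434 to 2128 CPM at night and 0.193 to 3200 CPM by day. Their median was -0.13 against the first day, with none called, and -10.2 against the second, with 5 lower. Of all genes tested 3.15% were lower against the second day. The glue gene Sgs7 ran from 0 to 0.0895 CPM at night, was at most at 1.19 CPM on the first day and reached 893 CPM on the second. Sgs3 was at 0 in all 6 night libraries and at most at 0.633 CPM on the first day. Neuron and glia markers summed to 146 to 272 CPM at night and to 83.5 to 298 CPM by day, with 10 of 11 estimates negative and none called. Hemocyte markers summed to 218 to 837 and to 304 to 1507 CPM, with 9 of 11 negative and none called. None of the 13 muscle, 9 cuticle or 5 Malpighian tubule markers was called, with medians of 0.04, -0.01 and 0.996, nor any of 6 genes of sex composition. Of the last, lncRNA:roX2 measured 0 and 0.0448 CPM at CT16, and 3.005 to 9.023 CPM in the other night libraries. By day it ran from 0 to 13.9 CPM. The part of these tissues and of sex in the results was not tested, apart from fits with a score as a covariate. These called 336 genes with the testis score, 145 with the midgut score and 317 with the score of the roX genes. The salivary gland score, chosen after seeing the data, gave 160. With the midgut score CNMa, trbl, CG5171, CG12224, CG7384, GstD1, Cth, REPTOR, Pgm1, Atg2, ref(2)P, CycE, mt:Cyt-b, hid and Cipc lost their calls. With the roX score trbl lost its call too. In pooled tissue, fewer cells of a type and less RNA per cell cannot be told apart.

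The same comparison in per0 gave no called gene of 10926 by edgeR (0%), and the unadjusted p was under 0.05 for 1054. There limma voom called 0 and DESeq2 101. The difference between genotypes gave none of 12020 by edgeR (0%), and the unadjusted p was under 0.05 for 923. The other tools gave 0 (voom) and 15 (DESeq2). That per0 had no call is thus not shown to be a difference from w1118. Of the 204 genes, 169 had the same sign in per0 (82.8%), against 57.8% of the 10644 genes tested in both genotypes. The 113 genes that rose in w1118 had a median of 0.45 log2 in per0, with 96 positive and 38 at an unadjusted p under 0.05. The 91 that fell had a median of -0.20, with 73 negative and 16 at an unadjusted p under 0.05. Leaving out per0 library B of CT28 left both counts at 0.

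All 12 of the largest rises had the same sign in per0, with a median of 1.32 log2 there. Of the 12 largest falls 10 had the same sign in per0, with a median of -0.56. Adjusted p for the difference between genotypes ran from 0.404 to 0.953 and from 0.26 to 0.988. Single genes ranged from near equal to flat in per0. Jabba differed by 0.92 ± 0.33 log2 between night and day in per0, and the difference between genotypes was -0.16 ± 0.41 (adjusted p = 0.969). CNMa differed by 1.80 ± 0.76 in per0, from 0.247, 5.42 and 41.3 CPM by day to 2.85, 15.1 and 87.5 CPM at night, with the groups overlapping and a difference from w1118 of -1.17 ± 1.09 (adjusted p = 0.884). kel differed by 0.11 ± 0.41 in per0, Kr by -0.01 ± 0.28, CG5958 by 0.01 ± 0.21 and PGRP-SD by 0.22 ± 0.49. Their differences between genotypes were -1.57 ± 0.47 (adjusted p = 0.388), 1.31 ± 0.31 (adjusted p = 0.26), 1.07 ± 0.22 (adjusted p = 0.26) and 2.17 ± 0.59 log2 (adjusted p = 0.312). PGRP-SD also stood at another level in per0, with 61.0 to 819 CPM over all per0 libraries of both phases against 8.37 to 118 CPM in w1118. The 5 smallest p of that test of genotypes belonged to CG5958, CG6067, CARPB, CG9586 and CG5953, and none passed.

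**Figure D5:**
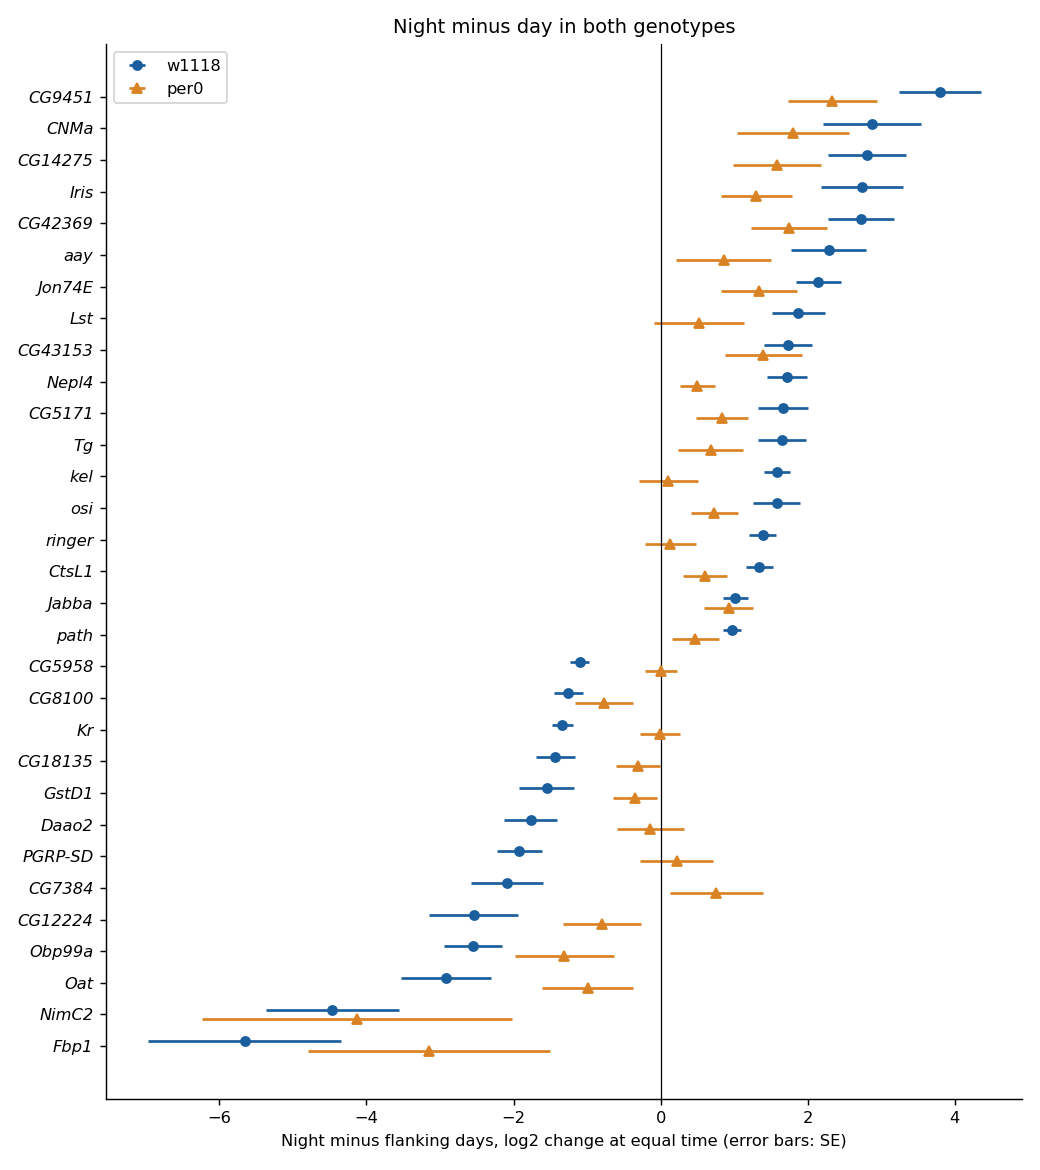
Log2 change between night and flanking days, with SE, in w1118 (circles) and per0 (triangles) for the 24 genes of largest change in w1118 and 7 others named in the text. The 12 largest rises all lie above 0 in per0 too. The per0 estimates of kel, ringer, Kr and CG5958 lie between -0.01 and 0.13, and that of Jabba lies at 0.92, beside 1.01 in w1118.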

How the data were processed

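The authors deposited raw counts per gene for each genotype, 17610 genes each. Per the labels' protocols, libraries were made with SMART-Seq v4, which keeps no strand and no molecular identifier, so that overlapping genes on opposite strands cannot be told apart. Per the submitters' processing notes the upstream tools were STAR 2.7.9a, featureCounts, edgeR and DESeq2 1.30.1, with roles unstated. No coordinates are printed, since the build and gene annotation are not given in the sources used here; overlaps between exons come from the BDGP6 annotation. The 36 per-sample columns of the authors' normalized tables were not used.

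Counts were analysed here with edgeR 4.0.16 in R 4.3.3: trimmed mean of M values, filterByExpr with time as the grouping, then the quasi-likelihood test with Benjamini-Hochberg adjustment over all genes tested. Each adjusted p-value comes from this test, and genes at an adjusted p under 0.05 count as called. DESeq2 1.42.0 and limma 3.58.1 (voom) were alternatives, and the edgeR step was tested on simulated data. There, night against day in w1118 called 1 of 67 genes changed by 0.5 log2, 17 of 67 changed by 1 and 42 of 66 changed by 2. It also called 2 unchanged genes. A gene that did not pass may thus have changed, even by 2-fold. Flanks were fitted as a factor of 3 blocks, steps and times within the night as a factor of the 9 times, and genotypes with an interaction term. Values shown are CPM, and 3 counts equal 0.0995 to 0.211 CPM in w1118, which covers counting error only.

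The comparison and the 35 gene lists were chosen with earlier results of these data known. Named genes were the 12 largest changes each way among called genes of at least 10 CPM, core clock genes, up to 4 members of each list with the smallest p, the 5 smallest p of the difference between genotypes and the 3 smallest of each step. Genes outside this rule are said to be chosen after their values were seen. The labels call duplicates biological replicates but do not say whether their cultures were separate, so the spread between duplicates may be technical. The p-values of steps and of times within the night are judged by that spread alone. Those of night against day and of each flank are judged by a spread that also holds differences among times within the night and within the days. In these fits both libraries of a time counted as independent. A w1118 CT0 sample carries a per0 genotype tag against its title and was kept as w1118.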

Additional observations from a re-analysis of the deposited data

Results flagged for a closer look

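Among the 58 named genes checked over the 6 night libraries of w1118, 5 had a library that stood apart from the other 5 libraries, as chance does in about 1 in 20 groups. In library A of CT16, Iris measured 32.63 CPM, against 92.56 to 142.2 CPM in the other night libraries. In the same library Jon74E measured 32.48 CPM, against 64.42 to 87.46 CPM, and kel 20.69 CPM, against 37.77 to 50.59 CPM. These values lay below the rest of the night and, for kel and Jon74E, above all day libraries. Fbp1 was highest there, at 26.69 CPM, against 1.265 to 4.421 CPM. CG10365 was lowest in library A of CT12, at 35.69 CPM, against 46.74 to 54.69 CPM. Without CT16 A the calls of Iris, Jon74E, kel and Fbp1 held.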

How the results depend on the processing

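Adding the column letter A or B to each fit as a replicate block, an alternative chosen after seeing the data, gave 158 genes for night against day in w1118 and 32 against the first day, and left every other count within 1.5 times. The difference between B and A was correlated across genes between times. In w1118 r ran from -0.629 to 0.686, with a median of 0.0265 (13 of 36 pairs of times over 0.1), so the letters did not pair the libraries steadily. In per0 r ran from -0.225 to 0.501, with a median of 0.106 (18 of 36). There library B held more midgut marker RNA than library A at every time, as at CT4 with 24970 against 124 CPM. In per0 the letter thus went with a difference between libraries. Nothing links the letters to the labels' replicate numbers. Night minus day in w1118, with 204 genes as reported, gave 948 by DESeq2 and 546 among genes of at least 10 CPM. It gave 66 without linear time, 554 with a factor of the 9 times, 133 with a 24 h cosine and sine pair, 317 with the roX score, which follows the share of males, and 336 with the testis score. It gave 37 with linear and quadratic time, an alternative chosen after seeing the data, of which 25 were among the 204. Leaving out both libraries of a time gave 122 for CT0, 41 for CT4, 309 for CT8, 71 for CT12, 58 for CT16, 64 for CT20 and 317 for CT32, and leaving out CT8 and CT32 together gave 417. With DESeq2 size factors the 296 genes split into 211 higher and 85 lower (71.3% higher against 55.4% as reported). Without replicate libraries in turn the count ran from 52 to 307.

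DESeq2 gave 914 genes against the first day, 1404 against the second, 1414 within the night, 114 at the step in, 944 at the step out, 101 in per0 and 15 for the difference between genotypes. Against the first day voom gave 259 and the 10 CPM filter 563, and that filter gave 101 within the night and 731 at the step out. Leaving out each library gave 4 to 336 against the first day, 383 to 901 against the second, 0 to 174 within the night, 0 to 1 at the step in, 90 to 464 at the step out, 0 in per0 and 0 to 1 for the difference between genotypes. Apart from Paics and CG13066, which were not followed, no named gene that was called changed sign under any alternative. Jon74E, kel, path, CtsL1, raw, Kr, CG5958 and Obp99a kept their calls in all of them. The causes were not tested. Depth limits per and cry, which lie near the floor of 3 counts. A lone library left at a time was assumed to vary like the others.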
